A study of Homo sapiens with 2 samples.

Results

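The genes described here are 6 small leucine-rich proteoglycan genes (LUM, DCN, KERA, EPYC, BGN and FMOD) and SRGN, which encodes serglycin. They were chosen by symbol, with earlier results of the same arrays known, and each had exactly 1 probe set that named no other gene, so that all 7 have a value among 14232 genes with 1 value. RNA was measured on Affymetrix exon arrays in SUDHL6 and HT, established human lines of diffuse large B cell lymphoma, with 1 array for each line. Both lines were untreated and grown in the same serum-containing medium. The labels give no genotype and no further sample of either line. The series title names a small-molecule inhibitor of PRC2, the Polycomb complex that methylates histone H3, and these arrays gave the levels without it.

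Proteoglycans are core proteins that carry long sulfated sugar chains. Small leucine-rich proteoglycans are secreted by fibroblasts, keratocytes and chondrocytes. Their core proteins are built of leucine-rich repeats, bind collagen fibrils and growth factors such as TGF-beta, and in the case of decorin and biglycan also signal through surface receptors. Serglycin belongs to another family. It is the proteoglycan of secretory granules in blood cells, where its chondroitin sulfate or heparin chains hold proteases and chemokines, and haematopoietic tumour cells can secrete it.

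Values are log2 expression values, and differences are given as SUDHL6 minus HT, so that a negative difference means a higher value in HT. The 95th percentile of 225 olfactory receptor genes, taken as unexpressed, set a background level, 3.81 for SUDHL6 and 4.11 for HT. Genes below it are called dim, and a gene is said to reach it when its higher value does so in that line. A gene was counted as higher in a line where the difference was at least 1 and that line's value was at or above its background level. A fold is 2 to the power of the difference, and where the lower value lay below the background level the level took its place and the fold is a lower bound, given as "at least". With 1 array per line no test could be made, and no difference could be set against a spread between cultures. The differences of the olfactory receptor genes ran from -1.96 to 4.61, with a standard deviation of 0.63. Less RNA per cell and fewer cells making it cannot be told apart in such bulk samples.

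LUM, DCN and SRGN were higher in HT, and KERA, EPYC, BGN and FMOD differed by less than 1. Over all 14232 genes, 4.62% were higher in HT, 3.50% in SUDHL6 and 8.12% in either line. The members were chosen with these same values in view, so nothing is read from the count of 3 of 7 in HT and 0 of 7 in SUDHL6. The counted member nearest to the threshold was DCN (difference -2.96), and the uncounted one nearest to it was EPYC (difference -0.47). The median difference was -0.47 over the 7 genes and -0.04 over all genes. Of the 7, BGN, LUM, DCN and SRGN (4 genes) reached the background level.

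**Figure D1:**
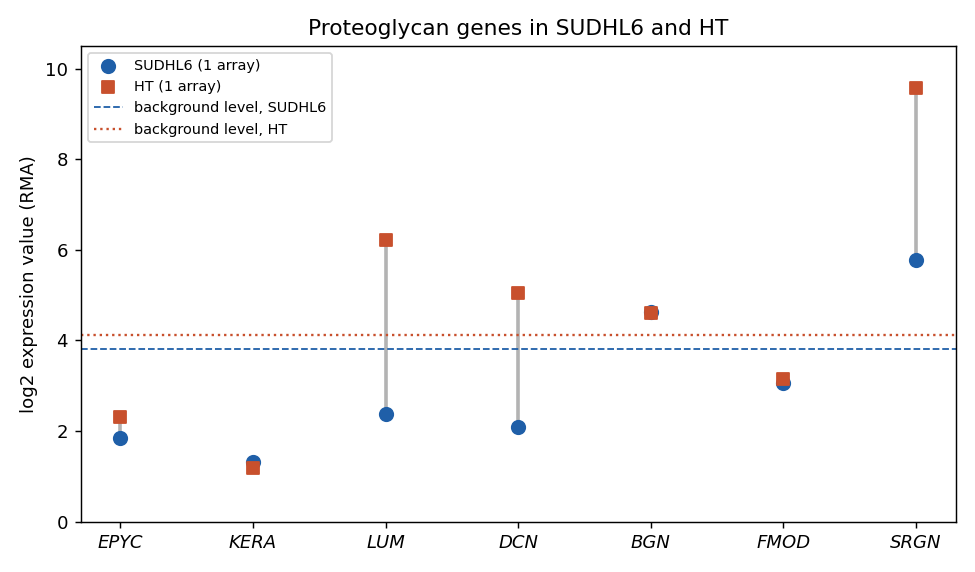
Log2 expression values (vertical axis, RMA) of the 7 proteoglycan genes in SUDHL6 (blue circles) and HT (orange squares), 1 array each, with grey bars joining the values of a gene and dashed and dotted lines at the background levels of 3.81 and 4.11. LUM and DCN cross the background level between the lines, SRGN lies above it in both lines, and the symbols of the other 4 genes lie close together.

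LUM encodes lumican, a keratan sulfate proteoglycan that spaces collagen fibrils in the cornea and other connective tissue. Its value was 2.38 in SUDHL6 against 6.22 in HT, a difference of -3.84. The SUDHL6 value lay below the background level and the HT value above it, so that HT was at least 5.29-fold higher. Counting LUM itself, 32 of the 14232 genes had a difference this low. DCN encodes decorin, a chondroitin or dermatan sulfate proteoglycan that binds collagen and TGF-beta. It stood at 2.09 in SUDHL6 against 5.05 in HT, at least 2.35-fold higher in HT. DCN too was below the background level in SUDHL6 and above it in HT, and 69 genes had a difference as low as its -2.96. Both differences lay below the lowest difference of the olfactory receptor genes (-1.96). Most of the olfactory receptor differences lay between -1.03 and 1.26. The highest of them (4.61), in the other direction, was larger in size than that of LUM or DCN. A difference of such a size thus occurred among genes taken as unexpressed, but not towards HT.

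**Figure D2:**
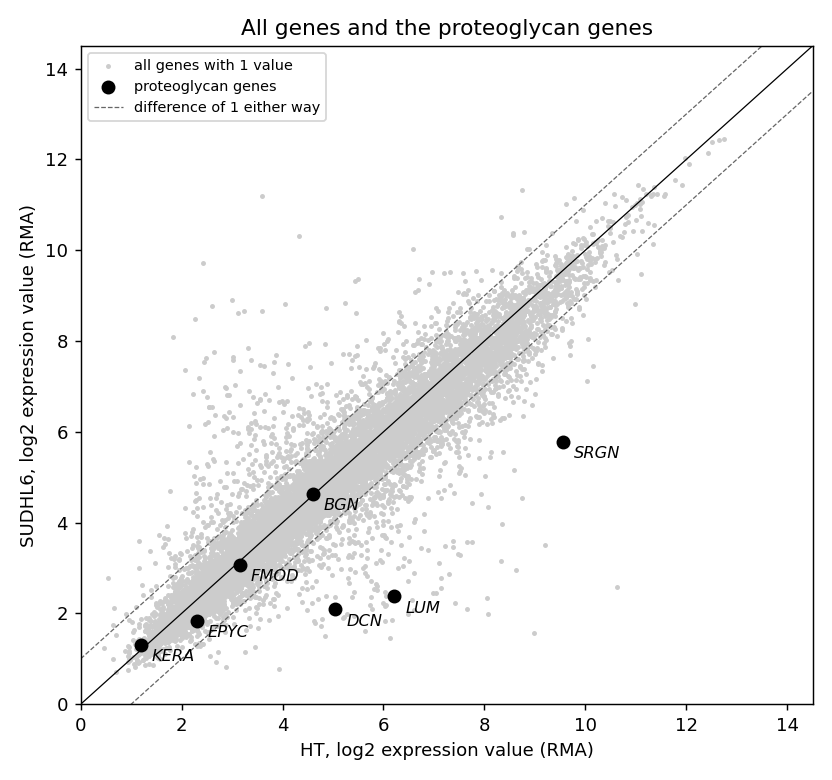
Log2 expression values of the 14232 genes with 1 value (grey points) in HT (horizontal axis) and SUDHL6 (vertical axis), with the 7 proteoglycan genes in black, the line of equal values and dashed lines at a difference of 1 either way. SRGN, LUM and DCN lie below the lower dashed line, on the side of HT, and the other 4 lie between the dashed lines.

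LUM and DCN lie next to each other on chromosome 12, in a cluster with KERA and EPYC in the order EPYC, KERA, LUM, DCN. The pair at the other end of the cluster stayed below the background level in both lines. KERA encodes keratocan, a keratan sulfate proteoglycan of the cornea, and stood at 1.31 in SUDHL6 against 1.19 in HT. EPYC encodes epiphycan, a proteoglycan of growth plate cartilage, and stood at 1.84 and 2.31. A value below the background level gives only a bound, so the order of the 2 lines for KERA and EPYC is not established. The nearest genes with a value on either side of the cluster, CCER1 (difference -0.12) and PLEKHG7 (difference -0.29), were dim in both lines as well. Among the 5 nearest genes on each side, the median difference was 0.00 and only CRADD, an adaptor gene of caspase-2 signalling, was counted as higher in HT. CRADD stood at 2.57 in SUDHL6 against 4.39 in HT, at least 1.49-fold, and its difference fell under 1 when values were raised to the background level. EEA1, an early endosome gene 2 places beyond DCN, was at 6.38 in SUDHL6 against 5.45 in HT, in the other direction. Among the cluster and these neighbours, the adjacent genes LUM and DCN had the differences largest in size, followed by CRADD (-1.82). Of the 783 genes on chromosome 12, 7.15% were higher in HT, and the median difference was -0.09.

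The promoter of EPYC is shown because this gene of the cluster stayed dim beside LUM and DCN. It is the 250 bases before the RefSeq start of the gene, at chr12:91004973-91005222 of GRCh38.p14 on the minus strand, written 5′ to 3′ with matches to TATAAA in capitals. LUM, DCN, KERA and SRGN are not among the 3 of 7 genes matched in the RefSeq promoter table.
EPYC: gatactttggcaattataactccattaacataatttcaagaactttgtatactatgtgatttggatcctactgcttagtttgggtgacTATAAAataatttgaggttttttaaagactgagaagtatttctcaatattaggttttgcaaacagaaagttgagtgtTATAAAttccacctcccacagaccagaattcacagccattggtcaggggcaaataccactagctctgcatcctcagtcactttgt
The stretch held 0 CpG dinucleotides, against a median of 11 over 35116 promoters of the same length. TATAAA was found at 162 and at 85 bases before the start. A match to TATAAA on either strand occurred in 10.7% of all promoters, and a match to GGGCGG on either strand, the letters of a GC box, in 42.6%. EPYC had 0 matches to GGGCGG.

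BGN encodes biglycan, a chondroitin or dermatan sulfate proteoglycan close to decorin that can also signal through Toll-like receptors. It stood at 4.63 in SUDHL6 against 4.60 in HT, a difference of 0.03. Both values were above the background level and nearly equal, although reaching that level does not show that a gene was expressed. FMOD encodes fibromodulin, a keratan sulfate proteoglycan of tendon and cartilage. It stood at 3.07 in SUDHL6 against 3.15 in HT, below the background level in both lines. The genes around BGN on chromosome X, among them MAGEA1 (difference -0.33) and ATP2B3 (difference -0.17) directly beside it, gave a median of -0.07, and 0 of 10 differed by at least 1. Around FMOD on chromosome 1 the median was 0.16, with CHIT1 (0.06) and the proteoglycan gene PRELP (0.23) on either side. LAX1, an adaptor of lymphocyte signalling 4 places from FMOD, was at least 1.64-fold higher in SUDHL6 (4.82 against 3.41), and its difference was 0.71 with values raised to the background level.

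The promoter of BGN is shown as that of the 1 member above the background level at nearly the same value in both lines. It lies at chrX:153494730-153494979 of GRCh38.p14 on the plus strand, with matches to GGGCGG or its reverse complement CCGCCC in capitals.
BGN: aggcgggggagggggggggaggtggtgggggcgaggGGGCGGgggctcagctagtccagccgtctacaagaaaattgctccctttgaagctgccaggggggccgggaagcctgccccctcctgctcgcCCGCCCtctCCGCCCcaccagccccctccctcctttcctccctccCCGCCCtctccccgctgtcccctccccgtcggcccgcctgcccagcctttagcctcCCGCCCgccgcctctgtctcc
This stretch held 16 CpG dinucleotides, 5 matches to GGGCGG on either strand and 0 to TATAAA. Its GC content was 74%, against a median of 58% over all promoters. The FMOD promoter of the same length held 9 CpG, 2 matches to GGGCGG and 1 to TATAAA. These counts describe the letters of each stretch and were not related to the level of the genes.

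Among other genes of the small leucine-rich family, OMD was the 1 gene counted as different, and it was higher in SUDHL6. Of 12 listed genes, 11 had a value and 7 of them reached the background level where their value was higher. OMD, which encodes osteomodulin of bone, was 2.18-fold higher in SUDHL6, at 5.61 against 4.49. The list held 1 gene higher in SUDHL6 and 0 in HT, against 3.50% and 4.62% of all genes. Its median difference was 0.20, with 8 differences above 0 and 3 below. OMD lies on chromosome 9 in a row of 4 family genes, in the order OGN, OMD, ASPN, ECM2. OGN, which encodes osteoglycin, stood at 4.71 in SUDHL6 against 3.72 in HT. ASPN, which encodes asporin, was dim in both lines at 3.55 and 2.57, and ECM2 was dim at 3.67 and 3.47. The differences of OGN (0.99) and ASPN (0.98) lay just under the threshold, and OGN reached 1.00 after quantile normalization and 1.01 with the median difference set to 0. With values raised to the background level, the difference of OGN was 0.59. That of ASPN was then -0.30, the value this step gives to any gene dim in both lines, so the order of the lines for ASPN and ECM2 is not established. The 5 nearest genes on each side of this row gave a median of -0.17, and 0 of 10 differed by at least 1. This row was singled out after its values were seen. The other members of the list, PRELP, OPTC, CHAD, NYX, TSKU, PODN and PODNL1, differed by -0.29 to 0.27.

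SRGN was the proteoglycan gene with a value above the background level in both lines and a large difference between them. It stood at 5.78 in SUDHL6 against 9.56 in HT, a difference of -3.78, which is 13.7-fold. The SUDHL6 value was thus above the background level and the HT value well above it, so that this fold is not a bound. Counting SRGN itself, 33 of all genes had a difference this low. LUM, DCN and SRGN all remained higher in HT by at least 2 when the values were used as deposited and after quantile, loess or median scaling.

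**Figure D3:**
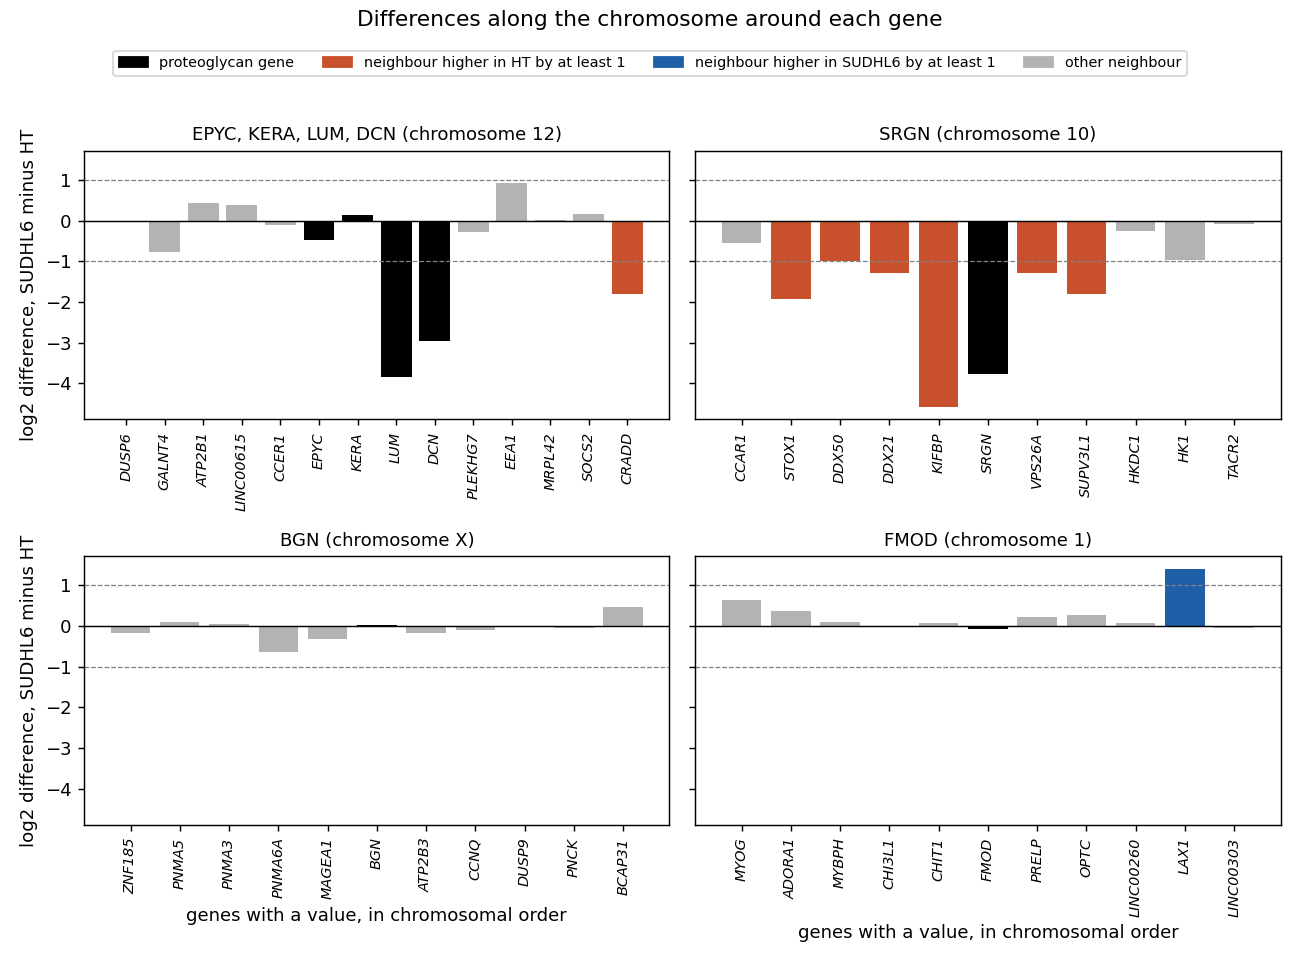
Log2 differences, SUDHL6 minus HT (vertical axis), of genes with a value in chromosomal order around the chromosome 12 cluster, SRGN, BGN and FMOD, with dashed lines at a difference of 1 either way. Black bars are the proteoglycan genes, orange and blue bars are neighbours higher in HT or SUDHL6 and grey bars are other neighbours. All 10 neighbours of SRGN lie below 0, and 6 of them are orange, against 1 around LUM and DCN, 0 around BGN and 0 around FMOD. Over all genes, 4.62% were higher in HT.

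The genes next to SRGN on chromosome 10 were also higher in HT. KIFBP, a kinesin-binding protein gene directly before SRGN, stood at 2.56 in SUDHL6 against 7.15 in HT, at least 10.1-fold higher in HT. VPS26A, a retromer subunit gene directly after it, stood at 7.42 and 8.70, which is 2.43-fold. Both flanking genes thus had their higher value in HT, KIFBP from below the background level in SUDHL6. The RNA helicase gene SUPV3L1 was 3.52-fold and DDX21 2.45-fold higher in HT, and STOX1, a winged helix gene, at least 3.23-fold. The helicase gene DDX50 was 2.0-fold higher in HT, at 7.90 in SUDHL6 against 8.90 in HT, but its difference was between -0.97 and -0.90 with the other scalings between arrays. Of the 10 nearest genes, 6 were higher in HT, 0 in SUDHL6 and all 10 had a lower value in SUDHL6, with a median difference of -1.14. Over all 14232 genes, 4.62% were higher in HT, 3.50% were higher in SUDHL6 and 52.9% had a lower value in SUDHL6. HKDC1, among the 10, was dim in both lines (2.89 in SUDHL6 and 3.15 in HT), so its order is not established. The difference of SRGN was 2.64 below the median of its neighbours. For LUM, whose 10 neighbours had a median of 0.00, subtracting it left the difference at -3.84.

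**Figure D4:**
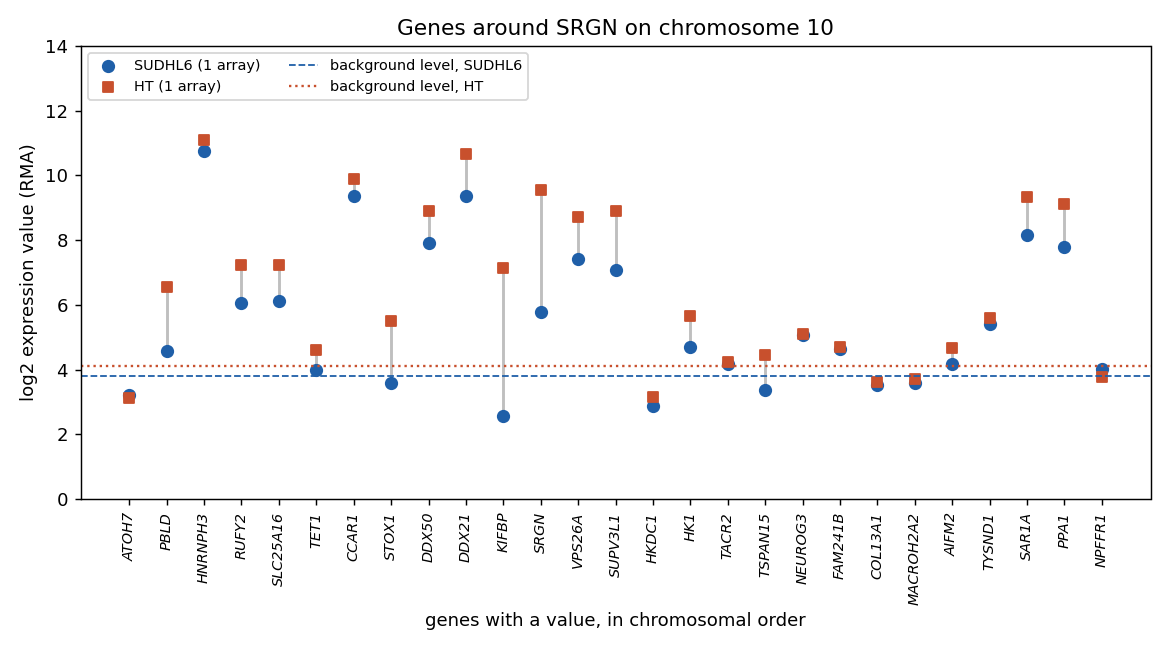
Log2 expression values (vertical axis, RMA) in SUDHL6 (blue circles) and HT (orange squares), 1 array each, of consecutive genes with a value around SRGN on chromosome 10, with the background levels as dashed and dotted lines. The HT value is the higher one from PBLD to PPA1, and the SUDHL6 value at ATOH7 and NPFFR1, the genes at either end. The order is not established at either end or for genes dim in both lines.

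The row of consecutive genes with a lower value in SUDHL6 ran from PBLD to PPA1 and held 25 genes, SRGN among them. It ended at ATOH7 (difference 0.08) on one side and NPFFR1 (difference 0.23) on the other, both near or below the background level. Within the row, HKDC1, COL13A1 and MACROH2A2 were dim in both lines. The order of the lines is not established for these genes, ATOH7 or NPFFR1. Of the 25, 13 were higher in HT by at least 1, and the median difference was -1.0. They included SAR1A, a GTPase gene of vesicle transport (8.16 in SUDHL6 against 9.34 in HT), and PPA1, a pyrophosphatase gene (7.80 and 9.13). SRGN and KIFBP had the lowest differences of the row, and the smallest was that of NEUROG3 (-0.04). Since the row was defined by the sign of its differences, its count and median are not comparable with those of other genes. On the rest of chromosome 10, 49 of 518 genes (9.46%) were higher in HT, against 4.62% of all genes, and the median difference was -0.12. Of 13964 windows of 11 consecutive genes over all chromosomes, 16 had a median as low as the window centred on SRGN (-1.28). Of these 16, 5 held SRGN and the other 11 lay on chromosome 11. The row and the windows were examined after the values were seen, and neighbouring windows share genes. After quantile normalization the 25 genes all kept a lower value in SUDHL6, with 11 higher in HT by at least 1, and after loess 24 of the 25 did. Whether the difference of SRGN shares a cause with those of its neighbours was not tested.

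The promoter of KIFBP is shown as that of the gene beside SRGN with the lowest difference in the row. It lies at chr10:68988553-68988802 of GRCh38.p14 on the plus strand, with the match to GGGCGG in capitals.
KIFBP: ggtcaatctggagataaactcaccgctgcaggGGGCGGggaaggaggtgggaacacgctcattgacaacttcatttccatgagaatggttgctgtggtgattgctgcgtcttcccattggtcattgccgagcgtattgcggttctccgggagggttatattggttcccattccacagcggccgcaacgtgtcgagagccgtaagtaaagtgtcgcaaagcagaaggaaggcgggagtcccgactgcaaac
It held 16 CpG dinucleotides, 1 match to GGGCGG at 218 bases before the start and 0 to TATAAA.

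Enzymes that build the sugar chains of these core proteins differed for a few genes. In the list for the common linkage region and for chondroitin and dermatan sulfate, 19 of 23 genes had a value, 12 reached the background level, 2 were higher in HT and 0 in SUDHL6. Over all genes 4.62% were higher in HT and 3.50% in SUDHL6, and nothing is read from so small a count. CHST11, which adds sulfate at carbon 4 of the galactosamine of chondroitin, stood at 4.42 in SUDHL6 against 7.76 in HT, which is 10.1-fold. FAM20B, a kinase that phosphorylates the xylose of the linkage region, stood at 5.56 and 7.44, which is 3.69-fold. Both genes lay above the background level in both lines. The chondroitin polymerising enzyme genes CHSY1 (difference -0.78) and CHPF (-0.46) and the initiating enzyme gene CSGALNACT2 (-0.76) had lower values in SUDHL6 but differed by less than 1. CHST14, the dermatan sulfate sulfotransferase gene, had a difference of 0.60, but its HT value lay below the background level. The median over the 19 was -0.05, close to the -0.04 of all genes.

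Single enzyme genes of keratan sulfate and heparan sulfate were counted as different, in both directions. In the keratan sulfate list 11 of 12 genes had a value, and B4GALT1, a galactosyltransferase gene, was the 1 gene higher in HT. It stood at 2.79 in SUDHL6 against 4.22 in HT, at least 1.32-fold, and was not counted with the background level at the 99th percentile, with values raised to the background level or once probe sets shared by several genes were added. The other 10 genes differed by less than 1, among them FUT8 at 7.67 and 8.06, and the median of the list was -0.08. In the heparan sulfate list 19 of 23 had a value, 2 were higher in SUDHL6 and 1 in HT, and the median was -0.04. Over all genes 8.12% were counted as different in either line, and nothing is read from the counts of these lists. HS2ST1, a 2-O-sulfotransferase gene, was 2.67-fold and GLCE, the epimerase gene of heparan sulfate, 2.57-fold higher in SUDHL6. EXT1, a subunit gene of the heparan sulfate polymerase, was 2.51-fold higher in HT, at 5.07 against 6.39. EXT2, the gene of the partner subunit, stood at 5.22 and 5.26.

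**Figure D5:**
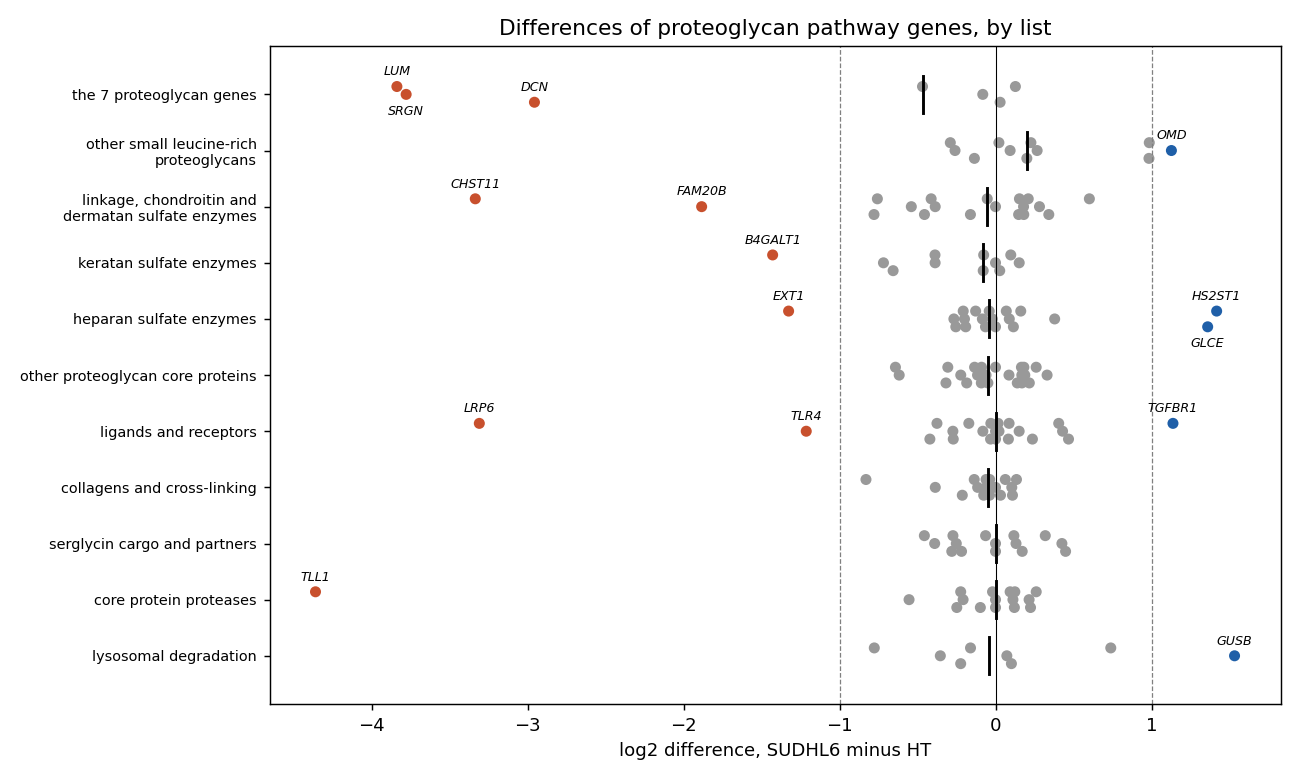
Log2 differences, SUDHL6 minus HT (horizontal axis), of genes in 11 lists (rows), with 1 point per gene (offset vertically only for legibility), black bars at the median of each list and dashed lines at a difference of 1 either way. Orange points are higher in HT, blue points in SUDHL6 and grey points are not counted as different. The medians of the 10 lists other than the 7 proteoglycan genes lie between -0.08 and 0.20, while single genes such as TLL1, CHST11 and LRP6 lie far to the left.

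Among 22 ligands and receptors bound by small leucine-rich proteoglycans, 9 reached the background level, 2 were higher in HT and 1 in SUDHL6. Over all genes the shares were 4.62% in HT and 3.50% in SUDHL6, and nothing is read from these counts. TGFBR1, a TGF-beta receptor gene, was 2.20-fold higher in SUDHL6, at 6.07 against 4.93, and TGFBR2 stood at 6.19 and 5.73. TLR4, a Toll-like receptor that biglycan and decorin can engage, was 2.32-fold higher in HT, at 3.87 in SUDHL6 against 5.08 in HT. The SUDHL6 value of TLR4 lay only just above the background level of 3.81. The TLR4 co-receptor genes LY96 and CD14 were dim in both lines. LRP6, a Wnt co-receptor gene that lies on chromosome 12 as LUM and DCN do, stood at 1.90 in SUDHL6 against 5.20 in HT, which was at least 2.62-fold above it. The ligand gene TGFB1 was at 4.45 and 4.72, and the decorin receptor genes EGFR and MET were dim in both lines. The median of the list was 0.00.

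Of 16 enzyme genes that cleave proteoglycan core proteins or related matrix, 1 differed by at least 1, against 8.12% of all genes counted in either line. TLL1, a tolloid-like protease that can process procollagen and the propeptide of biglycan, stood at 2.78 in SUDHL6 against 7.14 in HT, at least 10.1-fold higher in HT. The related protease gene BMP1 was near its background level at 3.93 and 3.95, and HTRA1, a serine protease gene, stood at 6.10 and 5.88. The median of these 16 was 0.00. In the list for breakdown of the chains in lysosomes, 8 of 15 genes had a value, each of them at or above the background level. GUSB, the beta-glucuronidase gene, was 2.89-fold higher in SUDHL6, at 6.82 against 5.29, and the other 7 genes differed by less than 1, with ARSB at 4.33 and 5.10. The median was -0.04.

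Other core proteins, the collagens and the cargo of serglycin gave 0 genes with a counted difference of at least 1. Of 26 other proteoglycan core protein genes, 23 had a value and 6 reached the background level, with BCAN at 4.61 in SUDHL6 against 4.93 in HT and GPC2 at 4.60 and 4.69. CD44, a receptor of serglycin, was dim in both lines at 2.78 and 2.64. Of 18 collagen and cross-linking genes, 16 had a value and 9 reached the background level. COL6A1 stood at 5.73 and 5.79 and LOXL1 at 5.38 and 5.46, and the fibrillar collagen gene COL1A1 was at 4.47 and 4.44. Of 21 serglycin cargo genes, 15 had a value and 5 reached the background level. The protease gene GZMM was at 5.33 and 5.55 and the chemokine gene CCL5 at 5.30 and 5.57, while PRF1, the perforin gene, was dim at 3.50 and 3.75. The list medians were -0.05, -0.05 and 0.00. Over all genes 8.12% were counted as different in either line, and 10 of the 15 cargo genes were dim where their value was higher. Nothing is read from the count of 0 in these lists.

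Markers of the cell types that usually make these proteoglycans held 0 genes counted as different between the lines. Over all genes 8.12% were counted as different in either line, and most of these markers did not reach the background level. Nothing is thus read from the count of 0. Of 12 fibroblast and mural cell markers, 9 had a value and 2 reached the background level, 0 were counted as different, and values ran from 1.35 to 4.12 in SUDHL6 and from 1.35 to 4.50 in HT. FN1, the fibronectin gene, stood at 3.86 and 4.50, MYL9 at 4.12 and 4.07, and the fibroblast markers FAP (1.35 and 1.35), POSTN (1.67 and 1.56) and PDGFRB (3.61 and 3.33) were dim. Endothelial markers reached the background level for 2 of 8 (ROBO4 at 4.78 and 4.43, TIE1 at 3.97 and 4.14), and keratocyte and chondrocyte markers for 3 of 7, COL9A2 (5.33 and 5.12) and SOX9 (4.87 and 5.30) among them. Mast, myeloid and cytotoxic cell markers, which stand for the cells rich in serglycin, reached it for 3 of 8, with NKG7 at 4.91 and 5.30, GP9 at 4.98 and 5.05 and KIT dim at 2.16 and 2.17. In these 3 lists 0 genes were counted as different. The medians of the 4 lists were 0.11, -0.07, 0.12 and -0.01. Of 10 B cell markers, 9 had a value and reached the background level, with CD79A at 6.47 and 6.58 and CD22 at 9.13 and 8.55. MS4A1, the CD20 gene, was 6.01-fold higher in SUDHL6, CD72 at least 3.49-fold higher in SUDHL6, and EBF1, a B cell transcription factor gene, 3.12-fold higher in HT. The median of the B cell list was 0.19, and the difference of CD72 was 0.38 once probe sets shared by several genes were added.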

How the data were processed

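RNA of 2 lymphoma cell lines was measured with 1 exon array each, so precision is limited by the number of arrays. The authors deposited log2 expression values per probe set. The submitters' processing notes name RMA (background correction, normalization between arrays and summary of probes) and Affymetrix Expression Console, with versions, settings and build not given in the sources used here. RMA compresses differences between dim genes.

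Of 22011 probe sets, 14432 named 1 gene in the platform annotation, 2408 several, and 5171 have no name here. RefSeq (GRCh38.p14) supplied current symbols by gene number for 14404. A gene with several probe sets took the one with the highest mean. Gene order came from RefSeq, and coordinates appear for promoters only, as no source states the build used for the array.

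The members and lists were chosen with earlier results of these data known. Named genes were the members, up to 4 counted genes per list by size (otherwise the 2 with the highest mean), flanking genes, neighbours with a difference of at least 1, and the 3 genes nearest in difference to each counted member. Other genes were added after their values were seen. Alternatives covered scaling, the background level, probe set choice and the threshold. Counting was tested on simulated data, with noise smaller than the spread of the olfactory receptor differences. Changes were added only to genes with a mean well above the background level, so cases such as LUM and DCN were not covered. Python 3.11.15, pandas 2.3.3, numpy 2.4.6 and statsmodels 0.14.6 (loess) were used. No protein sequences were used here.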

Additional observations from a re-analysis of the deposited data

How the results depend on the processing

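The counts of 3 members higher in HT and 0 in SUDHL6 were the same under all 11 alternatives tried. These were quantile, loess and median scaling, values raised to the background level, and background levels at the 90th and 99th percentile. The others were no filter on low values, mean of probe sets, probe sets naming several genes, and differences of at least 1.5 and 2. Several of these could not change the counts. Each member had 1 probe set and shared none, so the alternatives on probe sets left its value as it was. Without the filter, or at the 90th percentile, no counted member could be lost. None could be added there, since each uncounted member differed by less than 1. All 3 counted differences were larger in size than 2, so the higher thresholds could not remove these genes. With values raised to the background level, the difference of LUM was -2.40 and that of DCN -1.23, by construction, since the SUDHL6 values of both lay below that level. Of the 42 differences of single members under the alternatives, the other 40 moved by less than the standard deviation of the olfactory receptor differences (0.63) and 0 changed sign among those counted as different. Those 40 include the differences under the alternatives on probe set choice, which could not move. The number of genes higher in SUDHL6 and HT was 498 and 657 as reported, 275 and 285 at a difference of at least 1.5, and 167 and 154 at 2, where the threshold itself removes genes. Quantile normalization turned their order (576 in SUDHL6, 568 in HT), and so did loess (581 in SUDHL6, 564 in HT). No paired analysis was possible because each line has 1 array, and for the same reason no replicate could be left out. Dim genes limit the precision: with 1 of the 2 values below the background level, only a bound on a fold can be given.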

Other observations

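The genes most like each counted member were taken by the difference between the 2 arrays alone, among genes that reached the background level. Likeness over 2 arrays is a description and says nothing of shared function. For LUM they were SRGN itself, the centrosomal gene CEP70 (2.18 in SUDHL6 against 6.04 in HT) and PLEKHA5 (2.16 and 6.04), which also lies on chromosome 12. For DCN they were the zinc finger genes ZNF57 (2.48 and 5.41) and ZNF880 (3.82 and 6.81) and the prostaglandin D synthase gene HPGDS (1.87 and 4.79). For SRGN they were SCRN1 (3.60 and 7.37), CCDC125 (2.72 and 6.49) and the RNA sensor gene IFIH1 (2.24 and 5.99). Apart from SRGN and ZNF880, all of these had a SUDHL6 value below the background level.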
